A study of Mus musculus with 17 samples.

Results

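The 10 genes described here, Pdgfra, Pdgfrb, Acta2, Fap, Postn, Dcn, Lum, Tagln, Des and Rgs5, are widely used to recognise fibroblasts and pericytes in tumor tissue. They were taken by name from the deposited gene table, where they are 10 of 21931 genes, by a rule that uses names and no measured value. All 17 bulk RNA-seq libraries were used, 9 from the control group and 8 from the cryoablation group. In both groups MC38 cells, a mouse colon cancer line with the genotype label WT, grew under the skin on both sides of C57BL/6J mice that were 6 to 8 weeks old. In the cryoablation group the tumor on 1 side was frozen on day 7, in 2 freezing cycles of 20 s by the labels (the methods of the study give another length), and the untreated tumor on the other side was collected 5 days later. Tumors of the control group carry the treatment label Control and the same time label. The question was whether freezing 1 tumor was followed by a different level of these stromal genes in the distant tumor. The labels give the group sizes used here, whereas the text of the study gives them the other way round, and the labels were followed.

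Fibroblasts of a tumor secrete collagens and proteoglycans, respond to platelet-derived growth factor (PDGF) mainly through the receptor encoded by Pdgfra, and can take on a contractile state with smooth muscle actin. Pericytes and vascular smooth muscle cells, together called mural cells, wrap blood vessels, are held there through the receptor encoded by Pdgfrb, and contain actin, desmin and transgelin. In the results below Pdgfra, Fap, Dcn, Lum and Postn are described as the fibroblast role, and Pdgfrb, Rgs5, Des, Acta2 and Tagln as the mural role, although several of them are used in both kinds of cell. In bulk RNA, fewer cells of a type and less RNA per cell cannot be told apart. The MC38 line and the host are both mouse, so RNA of tumor cells and of host stroma cannot be told apart by species either.

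The libraries held between 13524899 and 17898672 counts, with a median of 16048176 among controls and 15130145 in the cryoablation group. Cryoablation tumors 2, 4 and 5 stood apart on the first principal component, at -25.5 to -31.5 against -9.52 to 16.7 for the other tumors, and this component held 64.0% of the variance of the 500 most variable genes. Their scaling factors by TMM, the trimmed mean of M values, were 0.767 to 0.886 against 0.922 to 1.10 in the other tumors. Of 8 markers checked for the labelled epithelial tumor cells 5 were tested (Epcam, Krt8, Krt18, Krt19 and Cdh1) and their summed level was 9.70 to 214 CPM. Epcam had 8 to 127 counts per tumor, whereas the intestinal markers Cdx2 and Vil1 had 0 counts in every tumor and at most 11. By the design of the study a cryoablation mouse had 1 distant tumor. The study does not state, however, that each library came from a separate mouse. If some libraries shared a mouse, the p-values do not measure only the spread between mice.

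Between genes, levels can be compared only per length, and for this the deposited FPKM (fragments per kilobase, scaled to the library total) was used. Dcn, which encodes the collagen-binding proteoglycan decorin, was the highest of the 10 genes in all 17 tumors, with a median of 143.6 FPKM, and stood above 98.8% of all genes in the table. Postn, the matricellular protein periostin, followed with a median of 46.1 FPKM. Pdgfrb reached 28.6, Acta2 21.6 and Lum 14.4 FPKM. Pdgfrb was above Acta2 in 12 of 17 tumors and Acta2 above Lum in 14 of 17, so the order of these 3 genes was not kept from tumor to tumor. Rgs5 had a median of 7.40 FPKM and Pdgfra 5.94, with Rgs5 the higher in 15 tumors. Des stood at 1.49 and Fap at 0.695 FPKM, with Des the higher in 15 tumors, and Tagln was last in every tumor at 0.0566 FPKM.

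**Figure D1:**
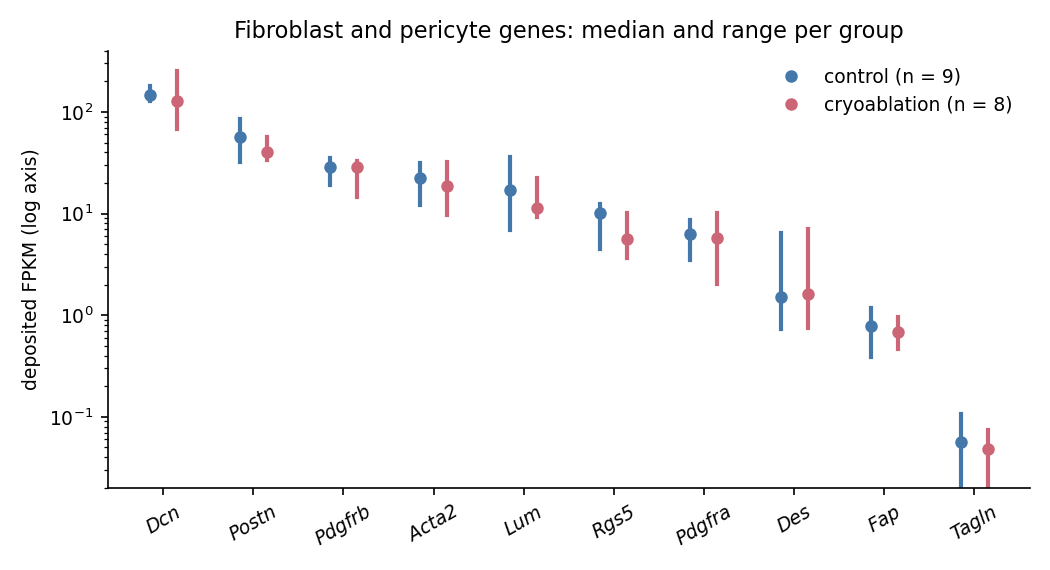
Deposited FPKM of the 10 genes on a log axis, with the median (point) and the lowest to highest tumor (line) in the control (n = 9) and cryoablation (n = 8) groups; the axis starts at 0.02, so the lines of Tagln, which had tumors at 0, are cut there. Dcn was highest at a median of 143.6 FPKM and Tagln lowest at 0.0566, and the ranges of both groups overlapped for every gene.

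Group differences were tested by edgeR's quasi-likelihood test on the counts, over the 13005 genes that passed its filter on low counts, with Benjamini-Hochberg adjustment. Of the 10 genes, 9 passed the filter and Tagln did not. None of the 9 had an adjusted p under 0.05, and neither did any other gene, the background being 0% of 13005, nor did any gene by DESeq2 or limma voom. At an unadjusted p under 0.05, where 4.91% of all tested genes lay (1.17% with lower values in the cryoablation group), there was 1 of the 9, Rgs5. The log2 fold change, cryoablation over control, was below 0 for 7 of the 9 genes and above 0 for Dcn and Des. The median of the 9 was -0.08 beside -0.01 over all tested genes, 52.0% of which were below 0. No gene separated the groups: the ranges overlapped for all 9. Values within a gene are given below as CPM, a count scaled to library size after TMM scaling.

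**Figure D2:**
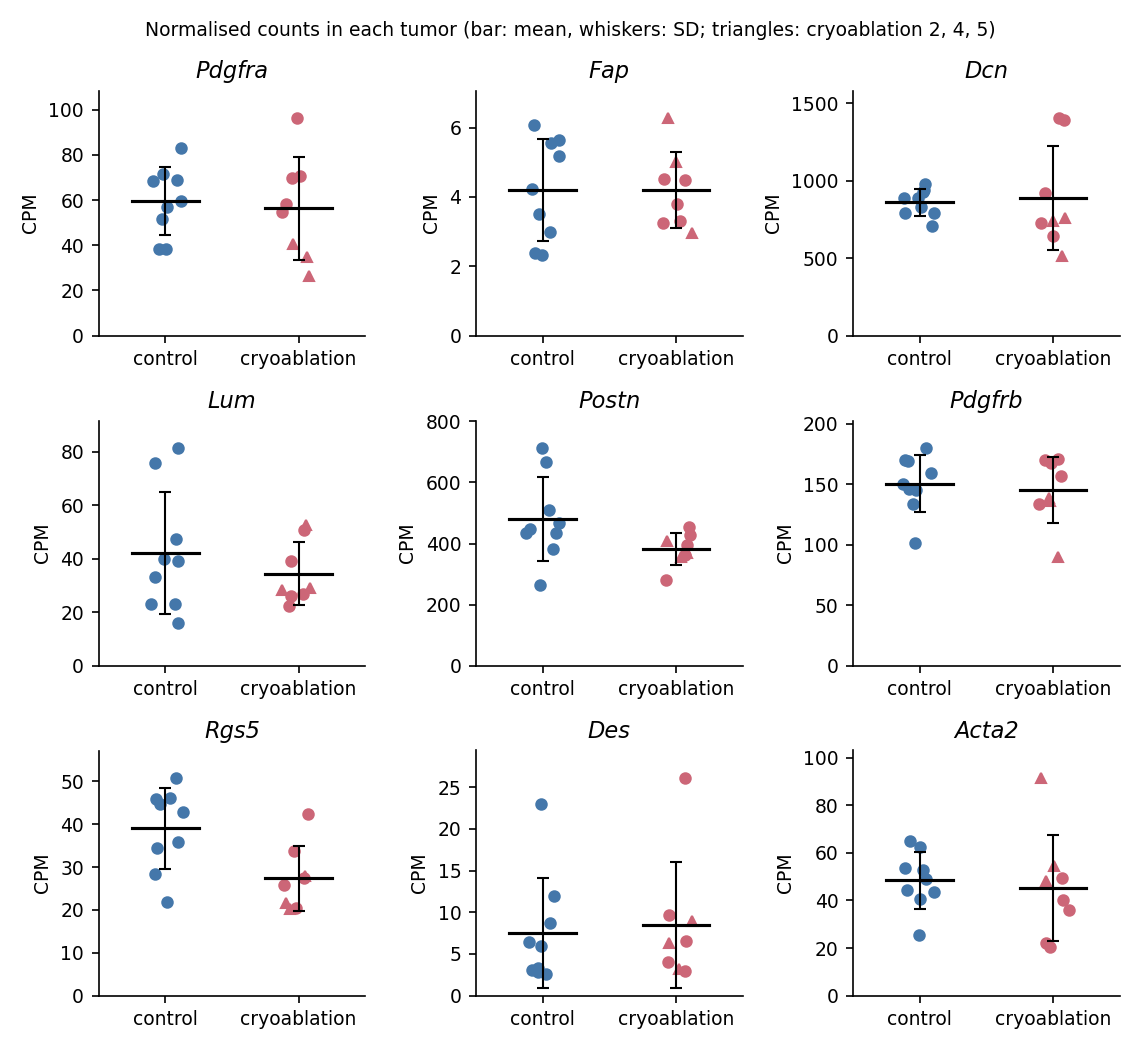
CPM of the 9 tested genes in each tumor (points; triangles are cryoablation 2, 4 and 5), with the group mean (bar) and SD (whiskers), for 9 control and 8 cryoablation tumors. For Rgs5 the median of the controls was 42.8 CPM and all 8 tumors of the cryoablation group lay under it, and the Dcn values of cryoablation 7 and 8 lay above every control tumor.

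Rgs5, a regulator of G protein signalling that is a standard pericyte marker, showed the largest difference of the 9 genes. It is listed at chromosome 1, 169483070 to 169523382 on the plus strand (ENSMUSG00000026678). It ranged from 21.9 to 50.9 CPM in the control group with a median of 42.8, and from 20.1 to 42.5 in the cryoablation group with a median of 26.6. Every cryoablation tumor was below the control median, but control 5 at 21.9 and control 6 at 28.4 CPM lay among the cryoablation tumors, and cryoablation 3, at 42.5, lay among the controls. The group means were 39.0 ± 9.50 (SD, n = 9) and 27.4 ± 7.61 CPM (SD, n = 8), a ratio of 0.703 in the fit with a 95% interval of 0.544 to 0.909. On the log2 scale the difference was -0.51 with an SE of 0.18. The unadjusted p was 0.00996 in edgeR and 0.0197 in a two-sided exact permutation test over the 24310 splits of the tumors, whereas the adjusted p over all genes was 0.728. Without cryoablation 2, 4 and 5 the log2 difference was -0.39 with an unadjusted edgeR p of 0.0693, so it was no longer under 0.05. Leaving out any single tumor gave -0.63 to -0.45, with unadjusted edgeR p-values of 0.00151 to 0.0220 and adjusted p over 0.05 in each case.

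Red blood cell markers ran opposite to Rgs5 in these tumors. All 4 tested genes of the 5 listed, Hba-a1, Hbb-bs, Hbb-bt and Alas2, were higher in the cryoablation group at an unadjusted p under 0.05, with log2 differences of 0.71 to 1.75 and an edgeR adjusted p of 0.728 each. Globin genes have near-identical copies, so their single values are uncertain, and without cryoablation 2, 4 and 5 only 1 of the 4 had an unadjusted p under 0.05. The summed level of the list was 6.16 to 74.1 CPM in the control group and 24.8 to 173 in the cryoablation group, and no gene of the list was at 0 in all tumors. Rgs5 correlated with the mean log2 CPM of the list at r = -0.64 and rho = -0.67 over 17 tumors, with permutation p-values adjusted over 99 relations of 0.0337 and 0.0271. Within the groups r was -0.39 and -0.49, with the group means removed it was -0.43, and without cryoablation 2, 4 and 5 it was -0.46, the last 2 with adjusted permutation p of 0.184 and 0.233. Leaving out 1 tumor gave r of -0.74 to -0.58, and the relation no longer passed without control 2, 3, 5 or 7 or cryoablation 1, 2 or 5. The part of blood in the Rgs5 values was not tested.

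Promoter sequence is shown for Rgs5 and Postn, the 2 genes with the smallest p of the 9, as the 250 bases before the RefSeq transcription start in GRCm38.p6. They are chr1:169655251-169655500 for Rgs5 and chr3:54360857-54361106 for the second of 2 listed starts of Postn, both on the plus strand and read 5′ to 3′, with the letters TATATA in capitals.
Rgs5: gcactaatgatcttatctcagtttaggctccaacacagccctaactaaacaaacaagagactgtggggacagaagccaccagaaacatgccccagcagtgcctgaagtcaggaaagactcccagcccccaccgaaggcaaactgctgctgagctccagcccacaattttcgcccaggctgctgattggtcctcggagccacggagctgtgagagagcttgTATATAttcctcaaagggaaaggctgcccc
Postn: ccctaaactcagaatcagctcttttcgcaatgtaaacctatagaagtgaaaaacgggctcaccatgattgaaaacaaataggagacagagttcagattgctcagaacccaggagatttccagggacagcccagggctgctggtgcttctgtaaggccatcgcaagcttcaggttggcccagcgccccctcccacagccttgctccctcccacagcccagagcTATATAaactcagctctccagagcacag
TATATA was searched on both strands of 300-base windows (250 before and 50 after the start), where it reads the same on either strand. It lay at -30 to -25 in Rgs5 and at -28 to -23 in Postn, and at 8 to 13 past the start in Acta2. RefSeq windows were used for 5 of the 10 genes (Des, Rgs5, Postn, Pdgfra and Acta2; 6 windows), and 3 of these 6 held the letters beside 5.67% of 32851 windows of all genes. The CArG box (CC, 6 letters A or T, then GG) was also searched. It lay in 0 of the 6 windows, beside 1.63% of the windows of all genes. Of 12 windows of other pericyte and smooth muscle genes, a list described below, 0 held TATATA and 1 held a CArG box. A match of letters describes the sequence and is not evidence of binding.

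None of the other tested mural genes had an unadjusted p under 0.05 in edgeR. Pdgfrb, the PDGF receptor of pericytes (chromosome 18, 61178222 to 61218133, plus strand), ranged from 101 to 180 CPM in the control group with a median of 150 and from 90.2 to 171 in the cryoablation group with a median of 148. Its values were the least spread of the 9 genes, judged by the ratio of the highest to the lowest tumor. The log2 difference was -0.05 with a 95% interval of -0.32 to 0.22. Control 4 and cryoablation 4 were the lowest tumor of their groups.

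Acta2, the smooth muscle actin of mural cells and myofibroblasts (chromosome 19, 34218490 to 34232990, minus strand), ranged from 25.3 to 65.0 CPM in the control group with a median of 49.0. In the cryoablation group it ranged from 20.4 to 91.6 with a median of 44.2. Cryoablation 5 was the highest of all tumors at 91.6 CPM, and cryoablation 7 and 8 were the lowest at 20.4 and 22.0. The log2 difference was -0.10 (SE 0.25, 95% interval -0.63 to 0.42), with an adjusted p of 0.880 in edgeR. Without cryoablation 2, 4 and 5 it was -0.54 with an unadjusted edgeR p of 0.0338 and an adjusted p of 0.941, and limma voom with sample weights gave -0.47 with an unadjusted p of 0.0381. Leaving out 1 tumor moved it from -0.33 without cryoablation 5 to -0.0016 without cryoablation 8, and it was -0.23 with the replicate block, -0.24 with a gene length offset and -0.25 with library totals.

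Des, the intermediate filament desmin of mural and striated muscle cells (chromosome 1, 75336973 to 75345223, plus strand), varied most, with the highest tumor at 10.0 times the lowest. It ranged from 2.60 to 23.0 CPM in the control group with a median of 5.97 and from 3.02 to 26.1 in the cryoablation group with a median of 6.40. The high values were those of 1 tumor in each group, control 6 at 23.0 and cryoablation 8 at 26.1 CPM. The log2 difference was 0.17 (SE 0.49, 95% interval -0.86 to 1.20), and leaving out 1 tumor moved it from -0.34 without cryoablation 8 to 0.59 without control 6. It was 0.68 by limma voom, 0.39 without cryoablation 2, 4 and 5 and 0.067 with library totals.

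The same 2 tumors were rich in skeletal muscle RNA. Acta1, the actin of skeletal muscle, had 730 counts in control 6, 675 in control 3, 451 in cryoablation 3 and 374 in cryoablation 8, 107 in control 8 and 97 in cryoablation 7, and at most 14 in the rest. Myh4, a fast myosin heavy chain, was high in the same tumors, at 807, 456, 270, 69, 62 and 13 counts in the order control 6, control 3, cryoablation 3, cryoablation 8, control 8 and cryoablation 7, and at most 1 elsewhere; both genes were picked from the muscle list after their values were seen. Of the 14 muscle genes 6 passed the filter, Tnnc2 was at 0 in all tumors, and the summed level was 72.5 to 211 CPM in the control group and 115 to 259 in the cryoablation group. Des correlated with the mean log2 CPM of the list at r = 0.86 and rho = 0.85 (adjusted permutation p 0.00099 and 0.00297 over 99 relations), with r = 0.86 within the control group and 0.89 within the cryoablation group. Without the 2 tumors farthest from the median of Des, r was 0.79. The part of muscle in the Des values was not tested.

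Tagln, which encodes the actin-binding protein transgelin, was at or near 0. It had 0 to 3 counts in every tumor and 26 of 265622930 counts over all tumors, so both groups were at or under the floor of 3 counts and no ratio is given. In the same libraries Acta2 had 338 to 1186 counts. Of 17 other pericyte and smooth muscle genes, a list described below, 15 passed the filter. The list's other genes, Lmod1 and Myocd, had only 0 to 17 and 0 to 3 counts. Tagln is listed at chromosome 9, 45840917 to 45847356 on the minus strand, and was the only one of the 10 whose listed span overlaps another gene of the table, Pcsk7 on the plus strand, which had 216 to 577 counts. In the GENCODE M21 annotation 108 of the 1988 exonic bases of Tagln also belong to exons of Pcsk7 and 1241 to the antisense gene Gm48529, leaving 639 that no other gene shares. Gm48529 has 0 rows in the table. Whether the counting used strand is not given in the sources used here, so the level of Tagln is uncertain, and the cause of its low count was not tested.

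Among the fibroblast genes Postn came closest to Rgs5. It lies at chromosome 3, 54268530 to 54298458 on the plus strand as listed, and ranged from 265 to 714 CPM in the control group with a median of 447 and from 279 to 455 in the cryoablation group with a median of 382. In the cryoablation group 7 of 8 tumors were below the control median, while control 6, at 265, was the lowest tumor of all. The means were 481 ± 138 (SD, n = 9) and 382 ± 53.7 CPM (SD, n = 8). The log2 difference was -0.33 (SE 0.16, 95% interval -0.67 to 0.00147), with an unadjusted p of 0.0509 and an adjusted p of 0.728 in edgeR and an exact permutation p of 0.102. The unadjusted p was 0.0487 in DESeq2, 0.0474 with upper-quartile scaling, 0.0436 with no filter on low counts and 0.0240 with scaling to library totals, and was 0.0855 by limma voom, 0.110 without cryoablation 2, 4 and 5, 0.160 with the replicate block and 0.272 with a gene length offset, where the log2 difference was -0.20. Leaving out 1 tumor gave 0.00771 (without control 6) to 0.116 (without control 4), so whether Postn was under 0.05 depended on the method and on single tumors.

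Lum, the proteoglycan lumican (chromosome 10, 97400990 to 97408565, plus strand), ranged from 15.9 to 81.5 CPM in the control group with a median of 39.1 and from 22.2 to 52.6 in the cryoablation group with a median of 28.8. Control 4 and control 7, at 75.9 and 81.5 CPM, were above all other tumors, and the same 2 tumors were the highest for Postn. The log2 difference was -0.29 with a 95% interval of -0.91 to 0.32. It was -0.15 without control 4, -0.12 without control 7 and -0.16 with the replicate number as a block.

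Dcn, which lies beside Lum on chromosome 10 (97315471 to 97354005, plus strand), ranged from 708 to 978 CPM in the control group with a median of 886. In the cryoablation group it ranged from 513 to 1407 with a median of 750. Cryoablation 7 and 8, at 1390 and 1407 CPM, were above every control tumor, and cryoablation 3 and 5, at 645 and 513, were below every one. The SD of log2 CPM was 0.149 among controls and 0.514 in the cryoablation group, a difference in spread that was not tested. The log2 difference of the groups was 0.05 (95% interval -0.32 to 0.41), with the median lower and the mean higher in the cryoablation group, at 860 ± 86.8 and 888 ± 335 CPM (SD, n = 9 and 8).

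Pdgfra, the PDGF receptor of fibroblasts (chromosome 5, 75312953 to 75358876, plus strand), ranged from 38.2 to 82.9 CPM in the control group with a median of 59.4 and from 26.2 to 96.4 in the cryoablation group with a median of 56.5. The 3 tumors that stood apart were the lowest of the cryoablation group, at 34.8, 40.5 and 26.2 CPM, and without them the log2 difference was 0.22 in place of -0.08 (95% interval of the latter -0.55 to 0.39). Fap, a serine protease of activated fibroblasts (chromosome 2, 62331287 to 62404419, minus strand), ranged from 2.33 to 6.08 CPM in the control group with a median of 4.22 and from 2.97 to 6.28 in the cryoablation group with a median of 4.14. Its log2 difference was -0.01 with a 95% interval of -0.48 to 0.46, and its counts of 31 to 120 per tumor made it the most thinly counted of the 9 genes.

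**Figure D3:**
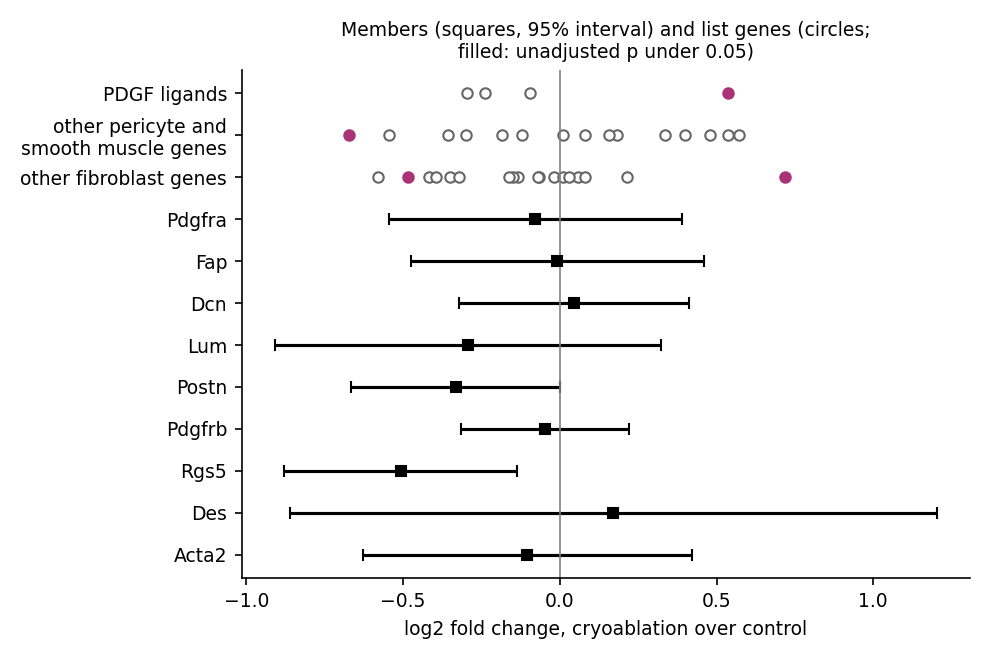
Log2 fold change, cryoablation over control, of the 9 tested genes (squares with the 95% interval of the edgeR fit) and of the genes of 3 related lists (circles, filled where the unadjusted p was under 0.05). The interval of Rgs5, -0.88 to -0.14, was the only one of the 9 that did not reach 0.

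Averaged by role on the log2 CPM scale, the 5 fibroblast genes were at 6.34 ± 0.375 among controls and 6.22 ± 0.168 in the cryoablation group, and the 4 tested mural genes at 5.15 ± 0.267 and 5.00 ± 0.285 (SD, n = 9 and 8). The differences were -0.12 and -0.14, smaller than the SD of either group. Their size depended on the tumors and the scaling: the fibroblast difference was -0.029 without cryoablation 2, 4 and 5, -0.054 without control 4 or control 7, -0.077 without cryoablation 5, -0.18 without control 6 and -0.22 with library totals, and the mural difference was -0.090 without control 3 and -0.24 with library totals.

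The same question was asked of related genes in lists of the same cell types and of the same pathway. Of 18 other fibroblast genes all were tested, 12 were below 0 and 6 above, with a median log2 difference of -0.10. Lrrc15, a membrane protein of myofibroblasts, was lower at -0.48 (SE 0.20, unadjusted p 0.0246, exact permutation p 0.0345), and 6 of 8 cryoablation tumors had less than the median of the controls. Twist2, a transcription factor of mesenchymal cells, was higher at 0.72 (SE 0.28, unadjusted p 0.0205, exact permutation p 0.0826). Col1a1, which encodes the main chain of collagen I, had a difference of -0.58 with an unadjusted edgeR p of 0.0683 and an adjusted p of 0.728. The list's range in summed level was 10931 to 16021 CPM in the control group and 6959 to 13990 in the cryoablation group.

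Of 17 other pericyte and smooth muscle genes 15 were tested (Lmod1 and Myocd were not), with 6 below 0, 9 above and a median of 0.08. Notch3, the Notch receptor of mural cells, was the only one at an unadjusted p under 0.05. Its median was 8.44 CPM among controls and 4.01 in the cryoablation group, whose highest tumor was at 8.13, so that as for Rgs5 all 8 cryoablation tumors were below the control median. Its log2 difference was -0.67 (SE 0.30), with an unadjusted p of 0.0379 and an adjusted p of 0.728 in edgeR and an exact permutation p of 0.0387. Tpm2, a tropomyosin, was at 0.57 with an unadjusted edgeR p of 0.0520, and Smtn, the smooth muscle protein smoothelin, at 0.34 with 0.0591, both with an adjusted p of 0.728. Smtn split the other way from Notch3, with all 8 cryoablation tumors above the control median (lowest at 98.8 CPM against a control median of 97.9). The summed level of the list was 439 to 641 CPM in the control group and 476 to 947 in the cryoablation group.

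The 4 PDGF ligands were all tested. Pdgfa, the main ligand of the Pdgfra receptor, ranged from 66.5 to 112 CPM in the control group and from 63.1 to 218 in the cryoablation group, with a log2 difference of 0.54 (SE 0.24, unadjusted p 0.0386 and adjusted p 0.728 in edgeR, exact permutation p 0.142). Its medians, 78.6 and 83.6 CPM, were close, and 3 of 8 cryoablation tumors had less than the median of the controls. Without cryoablation 2, 4 and 5 no ligand had an unadjusted edgeR p under 0.05. Pdgfb, the ligand by which endothelium attracts pericytes, was at -0.09 with a 95% interval of -0.30 to 0.11. Pdgfc and Pdgfd were at -0.30 and -0.24, with intervals that included 0.

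Of 5 symbols for serum response factor and its coactivators 3 are in the table and none of the 3 had an unadjusted p under 0.05, with Srf at 0.05, Mrtfa at -0.13 and Mrtfb at -0.13. Of 8 further small leucine-rich proteoglycans, the family of Dcn and Lum, 6 were tested (Kera and Epyc were not) and none had an unadjusted p under 0.05. Fmod was at -0.42, Omd at 0.28 and Ogn at -0.14.

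Across the 17 tumors the 9 genes did not vary as a block. Of their 36 pairs 20 had a positive and 16 a negative correlation of log2 CPM, with r from -0.68 to 0.82 and a median of 0.14. After adjustment over the 36 pairs 1 passed a permutation test at 0.05, Lum with Postn, at r = 0.82 (permutation p 7e-05, adjusted 0.00252) and rho = 0.68 (adjusted 0.0713). Its r was 0.93 in the control group, 0.55 in the cryoablation group, 0.64 without the 2 tumors farthest from the median of Lum (control 4 and 7) and 0.90 without cryoablation 2, 4 and 5. The number of pairs past the threshold depended on the scaling and the tumors. It was 1 with upper-quartile scaling, 10 when counts were divided by library totals in place of TMM, and 6 without cryoablation 2, 4 and 5.

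Dcn and Acta2 gave the lowest r, -0.68 with an adjusted permutation p of 0.0612 and rho of -0.31 (adjusted 0.509). The relation had opposite signs in the groups, r = 0.46 over 9 control tumors and -0.94 over 8 cryoablation tumors. In the latter the exact permutation p was 0.00179, or 0.0643 adjusted over 36 pairs, with rho = -0.79, and without the 2 tumors farthest from the median of Dcn r was -0.82. Cryoablation 7 and 8 had the highest Dcn and the lowest Acta2 of the group, and cryoablation 5 the lowest Dcn and the highest Acta2. The difference in r between the groups was not tested. Within the control group Fap with Rgs5 had r = 0.91 and Lum with Postn r = 0.93, each with an exact permutation p of 0.00903 after adjustment, while Fap with Rgs5 had r = -0.27 in the cryoablation group. By rank neither control pair passed, at rho = 0.82 and 0.83 with an adjusted exact permutation p of 0.129 each.

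**Figure D4:**
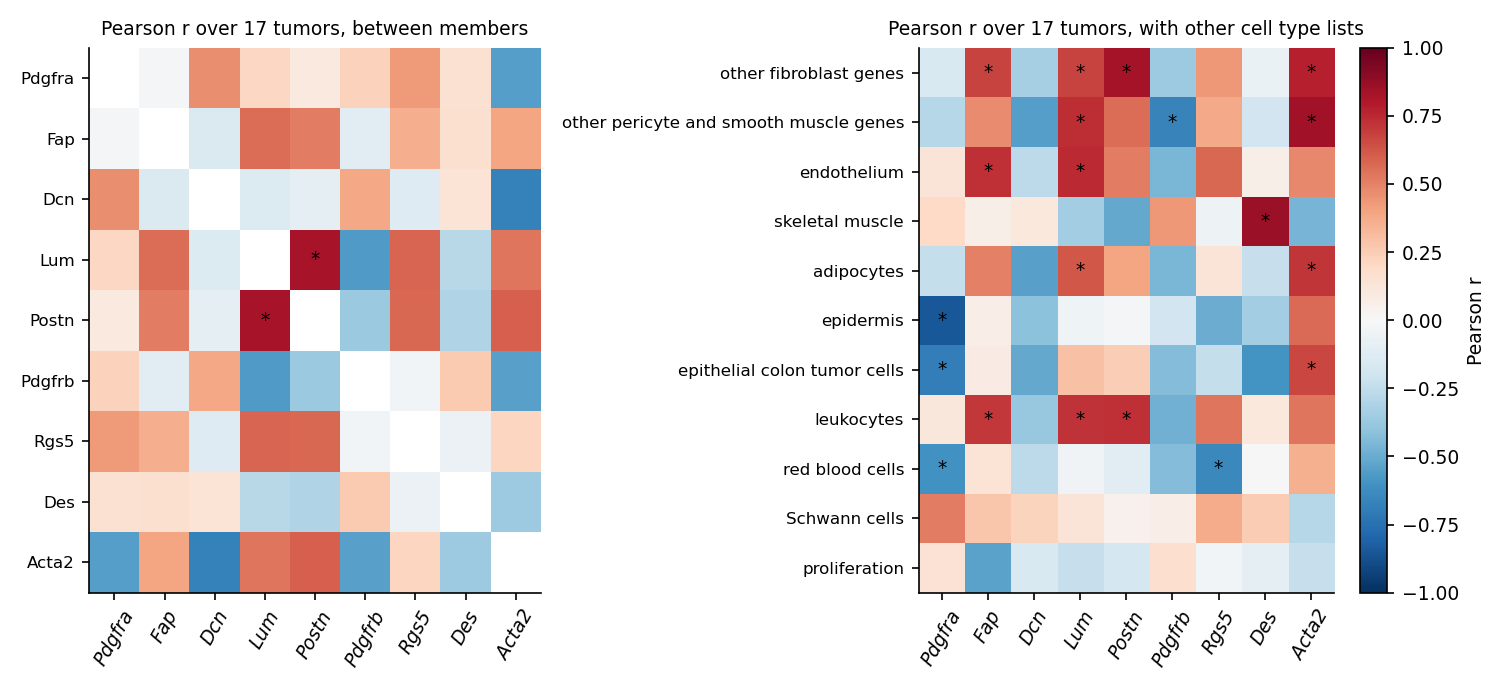
Pearson r of log2 CPM over 17 tumors between the 9 tested genes (left, colour scale from -1 to 1) and of each gene with the mean log2 CPM of 11 marker lists (right); a star marks a permutation p under 0.05 after adjustment over 36 pairs or 99 relations. Lum with Postn was the only starred pair, and 20 of the 99 relations with lists were starred.

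Set against the mean log2 CPM of 11 marker lists, 20 of 99 relations passed a permutation test at an adjusted p under 0.05, 15 of them positive. Acta2 followed the other pericyte and smooth muscle genes at r = 0.84 and rho = 0.84 (adjusted permutation p 0.00099 and 0.00297), with 0.84 within either group, 0.75 without the 2 farthest tumors and 0.86 without cryoablation 2, 4 and 5. Pdgfrb, the other defining mural gene, was negative against the same list at r = -0.67 (rho = -0.63, adjusted permutation p 0.0157 and 0.0550), but r was -0.30 with library totals as the scaling and -0.60 without cryoablation 2, 4 and 5 and did not pass in either. Postn followed the other fibroblast genes at r = 0.83 (rho = 0.68, adjusted permutation p 0.00173 and 0.0271), and so did Acta2 at 0.77, Fap at 0.68 and Lum at 0.67, whereas Dcn and Pdgfra did not pass against this list. For Acta2 this relation was 0.58 with library totals, with an adjusted permutation p of 0.0511. For Lum the rank correlation with the other fibroblast genes did not pass, at rho = 0.57 (adjusted permutation p 0.101). Lum was also positive against the other pericyte and smooth muscle genes, at r = 0.74 and rho = 0.76 (adjusted permutation p 0.00866 and 0.0115). Leaving out single tumors, the relations of Pdgfrb with the mural list (r = -0.63 without control 6), of Fap with the other fibroblast genes (0.61 without control 6) and of Lum with them (0.56, 0.60 and 0.62 without control 4, 6 and 7) no longer passed.

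Lum and Fap also went with endothelium, at r = 0.75 and 0.73, and Lum, Fap and Postn with leukocytes, at 0.72, 0.71 and 0.73, each with an adjusted permutation p of 0.00866. Postn with leukocytes was at 0.59 and no longer passed without control 4. Fap and endothelium had r = 0.92 among controls and 0.14 in the cryoablation group. The endothelial list, 12 genes all tested, held 148 to 311 CPM in the control group and 167 to 244 in the cryoablation group, and the leukocyte list, 9 genes all tested, 662 to 1913 and 508 to 1929 CPM. Neither list had a gene at 0 in all tumors. In these lists Egfl7 was higher at 0.59 and Adgre1 lower at -0.69, each with an unadjusted p under 0.05 and an edgeR adjusted p of 0.728, and without cryoablation 2, 4 and 5 neither list had a gene under 0.05.

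Pdgfra ran against the epidermal markers, at r = -0.84 and rho = -0.78 (adjusted permutation p 0.00132 and 0.00634), with -0.68 in the control group, -0.94 in the cryoablation group, -0.71 without the 2 farthest tumors and -0.67 without cryoablation 2, 4 and 5. Of the 10 epidermal genes 4 were tested, all above 0 in the group comparison, with Krt10 at 0.73 the 1 gene under an unadjusted p of 0.05 (0.0106, adjusted 0.728 in edgeR) and none without cryoablation 2, 4 and 5. Flg was at 0 in all tumors, and the summed level was 186 to 446 CPM in the control group and 208 to 668 in the cryoablation group. Against the epithelial tumor cell list, 5 of 8 genes tested with Cdx2 at 0 and 16.4 to 96.3 CPM in the control and 9.70 to 214 in the cryoablation group, Pdgfra had r = -0.69 and Acta2 r = 0.67, and these 2 relations did not pass without cryoablation 2, 4 and 5, at -0.49 and 0.60. With library totals the relation of Acta2 was at 0.57 and did not pass either (adjusted permutation p 0.0514). Acta2 and Lum were positive against adipocyte markers at r = 0.71 and 0.62 (7 of 8 genes tested, none at 0 in all tumors, 26.4 to 172 CPM in the control and 25.8 to 258 in the cryoablation group). In the group comparison 6 of these 7 were above 0, with Fabp4 at 0.86 and Cfd at 1.61 under an unadjusted p of 0.05 and at an edgeR adjusted p of 0.728, and without cryoablation 2, 4 and 5 none was under 0.05. Pdgfra was negative against red blood cell markers at r = -0.61 with an adjusted permutation p of 0.0485, and at -0.23 without cryoablation 2, 4 and 5. Of the relations in this paragraph, 3 no longer passed when some single tumors were left out: Acta2 with the epithelial list (r at its lowest 0.59, without control 6, cryoablation 5 or 7), Lum with adipocytes (0.55 to 0.69, in 9 of 17 cases, lowest without control 6) and Pdgfra with red blood cells (-0.68 to -0.48, in 11 of 17 cases, weakest without cryoablation 5). No relation with the Schwann cell or proliferation markers passed, and of the 4 and 8 tested genes of these lists none had an unadjusted p under 0.05 between the groups. The part of skin, fat, blood vessels, leukocytes or tumor cells in the levels of these genes was not tested.

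**Figure D5:**
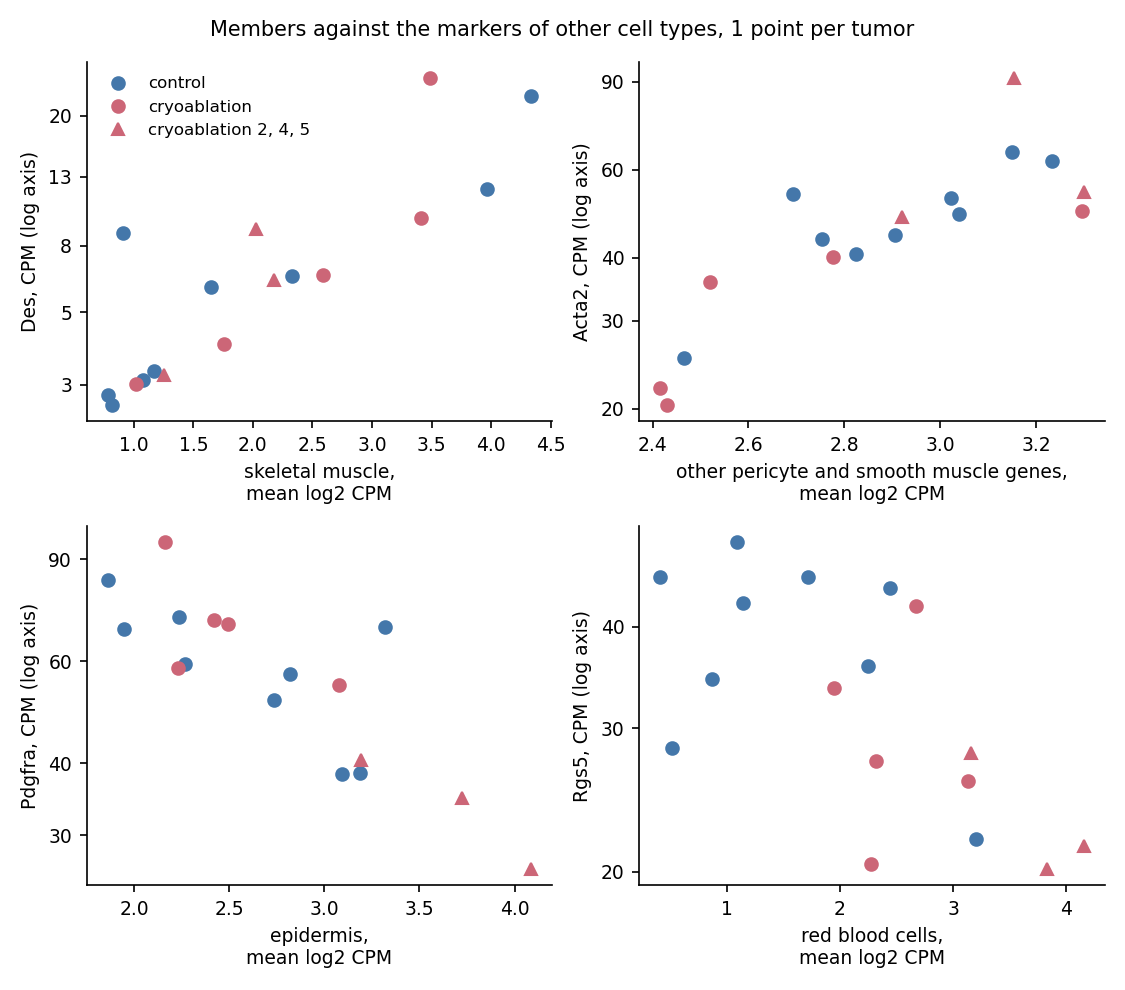
CPM of Des, Acta2, Pdgfra and Rgs5 (log axes) against the mean log2 CPM of a marker list in each of 17 tumors, with control tumors in blue, cryoablation tumors in red and cryoablation 2, 4 and 5 as triangles. Des and Acta2 went up with the skeletal muscle and the other mural lists (r = 0.86 and 0.84), and Pdgfra and Rgs5 went down with the epidermal and red blood cell lists (r = -0.84 and -0.64).

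Among the genes outside the 10 whose pattern over the 17 tumors was most like the mean of the standardized fibroblast genes were Selenop (r = 0.88), Cd1d1 (0.87), Als2cl (0.85) and Itga9 (0.85). For the 4 tested mural genes they were Rasip1 (r = 0.77), Mmrn2 (0.77), Filip1 (0.76), Exoc3l2 (0.75) and Pomgnt1 (0.74). These genes were picked from all tested genes by the size of r, which is given as a description.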

How the data were processed

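Whole distant tumors were profiled by bulk RNA-seq. The authors deposited 1 table with a count and an FPKM value per gene and tumor. The deposited FPKM values equal the count divided by gene length and library total. The labels name GRCm38/mm10, but only 512 of 21827 shared genes had the positions of GENCODE M21, so positions are given as listed, without a build; the aligner and counter are not given in the sources used here. Counts were tested with edgeR 4.0.16 in R 4.3.3 (TMM, filterByExpr, quasi-likelihood F test, Benjamini-Hochberg over 13005 genes, group only), with two-sided exact permutation tests of log2 CPM (prior count 2) beside it. Correlations across 17 tumors used 100000 permutations, or all orders within a group. DESeq2 1.42.0, limma 3.58.1, other scalings, no filter, a replicate block, a gene length offset and left-out tumors were alternatives, and scaling to library totals was added after seeing the data. The scripts were tested on simulated data. All 10 genes were named, and of each related list the genes with an unadjusted p under 0.05 and the 3 with the smallest p. The 10 genes, although selected by name alone, and the lists were proposed with earlier results of these data known. No 2 tumors held identical counts. The floor of 3 counts covers counting error only. The 5 genes most like each role over the tumors were also named, except 1 that is not reported here.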

Additional observations from a re-analysis of the deposited data

Results flagged for a closer look

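In the 22 groups of values examined (9 genes and 2 role means in each treatment group), 2 had a tumor far from the others, and chance gives such a tumor in about 1 in 20 groups. Pdgfrb in cryoablation 4 was the lowest of the 8 cryoablation tumors at 90.2 CPM, or 6.50 on the log2 scale, and the gap to the next tumor was 0.614 of the whole range, above the critical value of 0.526. Acta2 in control 6 was the lowest of the 9 control tumors at 25.3 CPM, or 4.67 on the log2 scale, with a gap of 0.505 of the range against a critical value of 0.493. Control 6 was also the tumor with the most Acta1 counts, 730, and the lowest tumor of its group for Lum, Postn and Fap.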

How the results depend on the processing

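No gene passed an adjusted p of 0.05 under any alternative. In edgeR 639 of 13005 tested genes had an unadjusted p under 0.05. The count was 1312 of 13005 by limma voom, 992 of 17819 without the filter and 325 of 13250 without cryoablation 2, 4 and 5. It was 252 to 1388 when 1 tumor was left out (lowest without cryoablation 2, highest without cryoablation 3). The sign of the log2 difference turned for Pdgfra (0.22) and Pdgfrb (0.081) without cryoablation 2, 4 and 5, for Fap (0.093) and Pdgfrb (0.013) with the length offset, for Pdgfrb (0.072) by limma voom and for Dcn with library totals (-0.021) and with the replicate block (-0.026). Leaving out 1 tumor gave -0.081 to 0.13 for Dcn, -0.34 to 0.59 for Des, -0.11 to 0.068 for Fap, -0.24 to 0.028 for Pdgfra and -0.11 to 0.028 for Pdgfrb. Member pairs past the threshold, 1, were 2 with group means removed, 6 without cryoablation 2, 4 and 5, 10 with library totals and 1 to 2 when 1 tumor was left out. The causes were not tested. Same-numbered tumors correlated at -0.51 to 0.64, with 4 of 8 pairs over 0.1 and 2 of 8 best with their own number. No chance level was computed for these values, so they cannot decide whether the numbers pair the tumors. With the replicate block, which leaves out control 9, Rgs5 was -0.53 with an edgeR adjusted p of 0.618. Library totals moved the median of all tested genes to -0.10. Fap, with 31 to 120 counts per tumor, had the fewest counts of the 9 tested members.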
